A study of Mus musculus with 6 samples.

Results

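Thrombospondins, tenascins and periostin are secreted glycoproteins that sit in the extracellular matrix and change how cells attach to it. The 9 genes described here are Thbs1, Thbs2, Thbs3, Thbs4 and Comp (the thrombospondins), Tnc, Tnn and Tnxb (tenascins C, W and X) and Postn (periostin), chosen by symbol from 23443 gene symbols. Their RNA was measured by sequencing in mouse palatal shelf cells that had been sorted for a red fluorescent protein (RFP) read from an allele of Osr2, which encodes a zinc finger transcription factor that the palatal shelves need to grow. Mutant cells (Osr2RFP/-) and control cells (Osr2RFP/+) were compared, with 1 mutant and 1 control library at embryonic day 12.5 (E12.5) and 2 mutant and 2 control libraries at E13.5. Both genotypes carried 1 Osr2RFP allele, so the control cells also had only 1 wild-type allele of Osr2. All mice had a mixed background, and only RFP+ cells of the shelf were profiled. The labels do not say whether a library came from 1 embryo or from several, so p-values measure the spread between these libraries. Levels are given in FPKM, the fragments of a transcript scaled to its length and to the mapped fragments of the library, so they can be compared between genes.

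In background, the thrombospondins fall into subgroup A (Thbs1 and Thbs2), which carry a procollagen domain and type 1 repeats, and subgroup B (Thbs3, Thbs4 and Comp), which lack both. Thbs1 binds the receptors Cd47 and Cd36 and releases TGF-beta from its latent form, and Thbs2 limits vessel growth and shapes collagen fibrils. Tenascin C is made where embryonic mesenchyme condenses and moves, and tenascin W is found in developing bone and periosteum. Periostin, named for the periosteum, binds tenascin C, collagen I and Bmp1, and is known in palatal mesenchyme.

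The libraries held an estimated 14100000 to 17970000 fragments each. Osr2 had 162.8 FPKM in the E12.5 mutant library, against 215.1 FPKM in the E12.5 control. At E13.5 it had 68.5 and 88.4 FPKM in the mutant libraries, against 138.3 and 151.7 FPKM in the control libraries (-0.89 on the log2 scale, limma adjusted p = 0.0409). The "-" allele's lesion is not named in the labels, so a gene-wide FPKM checks it only in part. The 7 palatal mesenchyme markers, Osr2 itself among them, were all expressed. They summed to 482.1 FPKM in the E12.5 mutant and 460.0 FPKM in the E12.5 control. At E13.5 they summed to 312.1 and 362.7 FPKM in mutants, against 421.9 and 433.5 FPKM in controls. Endothelial markers summed to at most 0.534 FPKM, skeletal muscle markers to at most 0.856 FPKM and glial markers to at most 1.38 FPKM. Leukocyte markers summed to between 1.54 and 3.18 FPKM, and oral epithelial markers to between 2.36 and 4.59 FPKM. Smooth muscle and pericyte markers summed to between 0.793 and 4.58 FPKM. At E13.5 that sum was 2.68 and 2.65 FPKM in mutants, against 3.86 and 4.58 FPKM in controls. Red cell markers summed to between 235.4 and 613.1 FPKM. The female transcript Xist stood at 128.7 and 141.0 FPKM in the E12.5 mutant and control libraries and at 138.3 FPKM in E13.5 mutant replicate 2, and at or under 0.0194 FPKM in the other 3 libraries. The number in the title is 2962 at E12.5, and at E13.5 it is 3047 in mutant replicate 1 and 3048 elsewhere. Age, title number and, in controls, Xist level therefore cannot be told apart.

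At E13.5 the mutant cells had more Thbs2 and more Tnn than the control cells, and no member was lower past the test. Thbs2, on the minus strand of chromosome 17, and Tnn, on the minus strand of chromosome 1, lie on different chromosomes, and the 250 bases before each start site are shown because these are the genes that differ between genotypes. The sequences are from RefSeq on GRCm38.p6, run 5′ to 3′ on the gene's strand, and cover chr17:14694263-14694512 for Thbs2 and chr1:160153576-160153825 for Tnn. Capitals mark the only match in each to 5 motifs searched on both strands.
Thbs2: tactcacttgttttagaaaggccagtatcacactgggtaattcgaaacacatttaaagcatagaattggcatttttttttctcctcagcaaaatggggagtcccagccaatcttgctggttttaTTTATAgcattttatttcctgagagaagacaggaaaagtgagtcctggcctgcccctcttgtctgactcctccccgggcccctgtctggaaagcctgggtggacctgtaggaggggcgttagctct
Tnn: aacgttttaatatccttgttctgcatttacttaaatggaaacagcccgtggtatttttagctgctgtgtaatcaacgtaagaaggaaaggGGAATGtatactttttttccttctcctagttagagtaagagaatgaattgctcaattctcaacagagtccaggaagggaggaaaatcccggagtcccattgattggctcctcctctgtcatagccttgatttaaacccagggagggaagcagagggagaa

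The motifs were the RUNX core TGTGGT, an OSR motif CAGTAGC, the AP-1 motif TGANTCA, the TEAD motif GGAATG and the TATA motif TATAAA. In Thbs2 the capitals are TATAAA read on the opposite strand, with its left end at position -126 from the start site. In Tnn they are GGAATG at position -160. Of 32851 promoters of the same length, 12.4% hold TATAAA, 12.6% GGAATG, 14.0% TGTGGT, 3.03% CAGTAGC and 6.75% TGANTCA. The promoter table has 7 of the 9 members. Tnc also has TATAAA at position -126, Postn has it at -26, Tnxb has TGANTCA at -55, and Thbs4 has GGAATG on the opposite strand at -197 and, partly overlapping it, at -192. The Thbs3 window holds none of the 5, and the letters TGTGGT and CAGTAGC are in none of the 7 windows. The Thbs2 and Tnn windows therefore share none of the searched motifs. Their GC content is 46.8% for Thbs2 and 42.0% for Tnn, against a median of 52.4% over all promoters.

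Tests ran over 10799 genes that reached 1 FPKM in 2 or more libraries, on log2(FPKM + 1), with limma moderated tests and Benjamini-Hochberg adjustment at 0.05, and folds are powers of 2 of those differences. Of the 9 members, 6 passed the filter, and Thbs4, Comp and Tnxb did not. At E13.5 the genotypes differed for 2 of these 6 members, both higher in mutants, where 1.29% of all genes tested passed in either direction and 0.852% passed as higher. Of these 2, Tnn passed the filter on low values only through the E13.5 mutant libraries where it was high, so the count is a description and is not read against that share. In sorted bulk RNA, a larger share of cells that make a gene and more RNA per cell cannot be told apart, which holds for every difference given here.

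Among the subgroup A thrombospondins, Thbs2 (chr17:14665500-14694262, 22 exons, GRCm38) had 6.61 and 5.87 FPKM in E13.5 mutant libraries, against 1.35 and 1.32 FPKM in E13.5 control libraries. Both mutant libraries lay above both control libraries, and each pair differed little within itself. The means were 6.24 ± 0.524 FPKM in mutants and 1.34 ± 0.0222 FPKM in controls (SD, n = 2 each), a ratio of means of 4.68. On the log2(FPKM + 1) scale the difference was 1.63 (SE 0.128, 95% interval 1.34 to 1.92, 3.10-fold, limma adjusted p = 0.000688). With any 1 library left out, the difference stayed between 1.56 and 1.70. With no filter on low values Thbs2 did not pass (limma adjusted p = 0.321), and neither did any other gene.

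Thbs1 (chr2:118111922-118127133, plus strand, 22 exons), the other member of subgroup A, had 5.13 and 5.20 FPKM in E13.5 mutant libraries, against 5.08 and 6.77 FPKM in E13.5 control libraries. The mutant values fell inside the control range. The log2 difference was -0.16 with a 95% interval of -0.48 to 0.17 (limma adjusted p = 0.853), and it was 0.02 without control replicate 2. The ratio of Thbs2 to Thbs1 FPKM was 1.29 and 1.13 in E13.5 mutant libraries, against 0.266 and 0.195 in E13.5 control libraries. Thbs2 was thus the more abundant of the pair in each E13.5 mutant library and the less abundant in each E13.5 control library. Platelets carry much Thbs1 protein, and of 6 platelet and megakaryocyte markers 5 were under 1 FPKM in all libraries, with Pf4 at or under 0.248 FPKM. The other, Gp1bb, had 2.58 and 1.32 FPKM in E13.5 mutant libraries, against 1.41 and 0.966 FPKM in E13.5 control libraries (limma adjusted p = 0.643). At E12.5 Gp1bb had 1.28 FPKM in the mutant library and 1.10 FPKM in the control library. The part of platelets in the Thbs1 level was not tested.

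**Figure D1:**
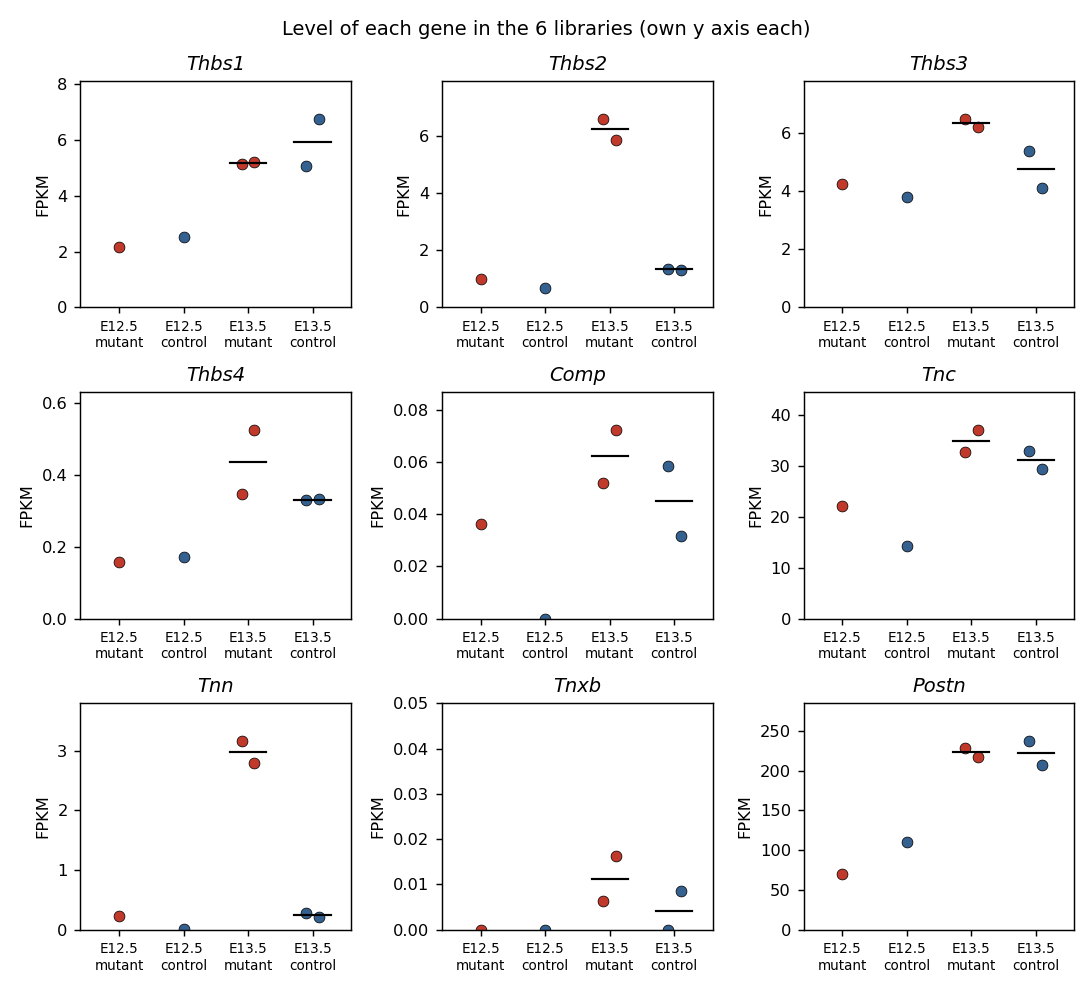
FPKM of each of the 9 genes, 1 panel per gene with its own y axis, 1 point per library, mutants left of controls within an age and a line at each E13.5 mean. The E13.5 mutant points of Thbs2 (5.87 and 6.61 FPKM) and Tnn (2.79 and 3.16 FPKM) stand apart from the E13.5 control points, while those of Postn, Tnc and Thbs1 do not separate by genotype.

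Of subgroup B, only Thbs3 passed the filter. Thbs3 (chr3:89215187-89226837, plus strand, 23 exons) had 6.49 and 6.21 FPKM in E13.5 mutant libraries, against 5.39 and 4.11 FPKM in E13.5 control libraries. The mutant values were both higher, a separation in that direction that 24.8% of all genes tested showed, but the difference of 0.36 (95% interval 0.05 to 0.68) did not pass (limma adjusted p = 0.438). Of its exon bases, 273 (8.56%) are shared with Mtx1 on the opposite strand, and the sources used here do not state whether the counting used strand. Thbs4, a thrombospondin of tendon and muscle (chr13:92751586-92794818, minus strand), had 0.347 and 0.525 FPKM in E13.5 mutant libraries and 0.329 and 0.333 FPKM in E13.5 control libraries. Comp, the cartilage oligomeric matrix protein (chr8:70373548-70382066, plus strand), stayed at or under 0.0724 FPKM in every library, which is at most an estimated 5.61 fragments.

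The summed level of the 5 thrombospondins was 18.6 and 17.9 FPKM in E13.5 mutant libraries, against 12.2 and 12.6 FPKM in E13.5 control libraries. Thbs2 made up 35.5% and 32.8% of that sum in mutants, against 11.1% and 10.5% in controls. Thbs1 made up 27.5% and 29.1% in mutants, against 41.6% and 53.9% in controls, and Thbs3 34.8% and 34.7% in mutants, against 44.1% and 32.7% in controls. Thbs2 was the gene whose FPKM separated the genotypes most within that sum. At E12.5 the sum was 7.59 FPKM in the mutant library and 7.17 FPKM in the control library, and Thbs3 was the largest part in both, with 55.8% in the mutant and 52.9% in the control.

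**Figure D2:**
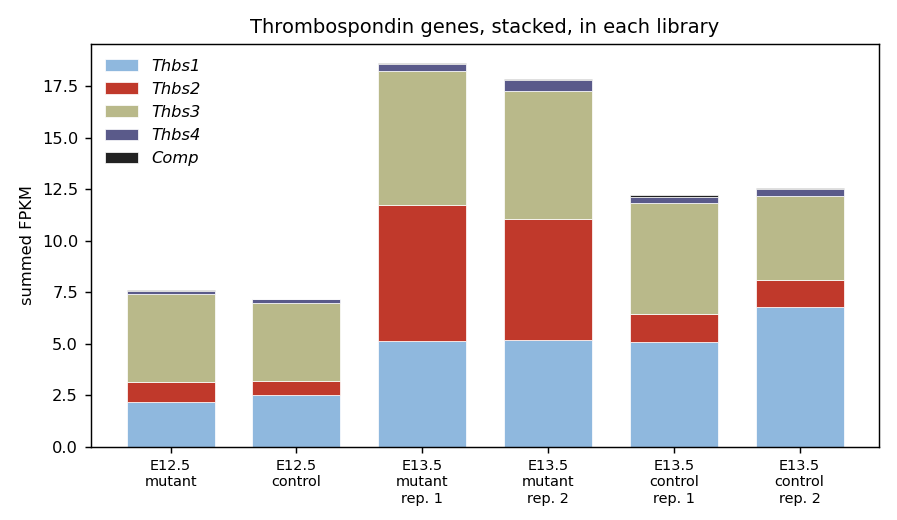
Stacked bars of FPKM for the 5 thrombospondin genes, 1 bar per library, mutant bars left of control bars within an age. The Thbs2 segment is 5.87 to 6.61 FPKM in the E13.5 mutant bars and at most 1.35 FPKM in the other 4.

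Of the tenascins, Tnn (chr1:160085032-160153575, 22 exons) had 3.16 and 2.79 FPKM in E13.5 mutant libraries, against 0.277 and 0.207 FPKM in E13.5 control libraries. The groups did not overlap, and the ratio of means was 12.3. The log2(FPKM + 1) difference was 1.68 (SE 0.142, 95% interval 1.36 to 2.00, 3.20-fold, limma adjusted p = 0.000728), a fold that understates a change from so low a level. The estimated fragments behind these values were 749.1 and 620.8 in the mutant libraries, against 60.1 and 50.9 in the control libraries. With any 1 library left out, the difference stayed between 1.61 and 1.74. Tnn entered the tests only through the E13.5 mutant libraries, and the filter stayed set on all libraries when 1 was left out. Its adjusted p is therefore a description, and with no filter on low values Tnn did not pass (limma adjusted p = 0.321). Without E13.5 mutant replicate 1, all E13.5 libraries share the title number 3048, and the differences were then 1.56 for Thbs2 and 1.61 for Tnn. Of the E13.5 mutant libraries, both of them high in Thbs2 and Tnn, replicate 2 had Xist and replicate 1 did not.

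Tnc (chr4:63959785-64047015, minus strand, 26 exons), the abundant tenascin, had 32.8 and 37.0 FPKM in E13.5 mutant libraries, against 32.8 and 29.3 FPKM in E13.5 control libraries. Its log2 difference was 0.16 with a 95% interval of -0.15 to 0.47 (limma adjusted p = 0.841). Tnc made up 91.2% and 93.0% of the tenascin FPKM in E13.5 mutant libraries, against 99.2% and 99.3% in E13.5 control libraries, and Tnn was nearly all of the rest. Tnxb, the tenascin of adult connective tissue (chr17:34670535-34719815, plus strand), stayed at or under 0.0162 FPKM, an estimated 6.51 fragments at most. Tnr, the tenascin of the nervous system and no member here, was listed at 0 in 5 libraries and at 0.00842 FPKM in E13.5 mutant replicate 1.

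**Figure D3:**
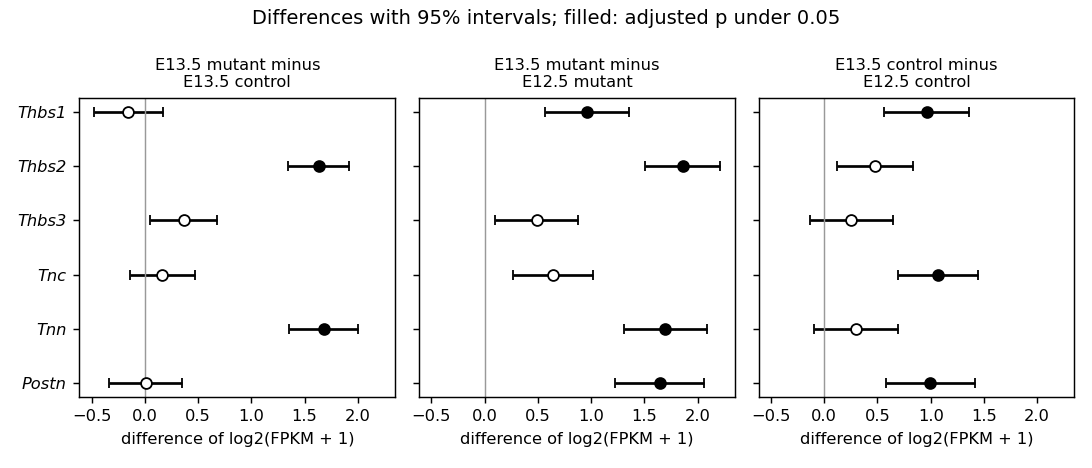
Differences on the log2(FPKM + 1) scale with 95% intervals for the 6 tested genes, in 3 panels for mutant minus control at E13.5 and for E13.5 minus E12.5 in mutants and in controls. Filled points have an adjusted p under 0.05. For mutant minus control, the intervals of Thbs2 (1.34 to 1.92) and Tnn (1.36 to 2.00) lie far above 0 and those of Tnc, Thbs1 and Postn cross it.

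Postn (chr3:54361107-54391041, plus strand) was the most abundant member in every library. At E13.5 it had 228.5 and 217.1 FPKM in mutant libraries, against 237.2 and 207.2 FPKM in control libraries. The mutant values lay inside the control range, and the means were 222.8 ± 8.07 FPKM in mutants and 222.2 ± 21.1 FPKM in controls (SD, n = 2 each). The log2 difference was 0.01 with a 95% interval of -0.33 to 0.35 (limma adjusted p = 0.995), so changes of up to about that size in either direction remain possible. Its sign turned with the scaling of the libraries, to -0.0064 when all had the same FPKM sum and -0.05 under median ratio scaling.

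Periostin RNA is spliced in several forms near its 3′ end, and the tables list 3 RefSeq transcripts that differ by 2 cassette exons. NM_001198765 has an exon of 81 bases (27 codons, chr3:54380412-54380492), NM_015784 has an exon of 84 bases (28 codons, chr3:54385671-54385754), and NM_001198766 has neither. These exons are shown because they alone tell the transcripts apart. They are read on the plus strand of GRCm38.
81-base exon: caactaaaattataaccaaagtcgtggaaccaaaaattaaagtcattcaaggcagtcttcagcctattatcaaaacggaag
84-base exon: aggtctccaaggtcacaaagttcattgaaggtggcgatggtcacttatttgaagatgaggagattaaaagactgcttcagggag

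The transcript with the 81-base exon carried 55.1% and 55.5% of Postn FPKM in E13.5 mutant libraries, against 56.0% and 55.5% in E13.5 control libraries. The transcript with the 84-base exon carried 37.9% and 39.2% in mutants, against 36.9% and 37.8% in controls. The transcript with neither carried 7.02% and 5.33% in mutants, against 7.10% and 6.76% in controls. At E13.5 the shares of each form thus lay within a few percentage points of each other in the 4 libraries. At E12.5 the transcript with neither exon had 4.59 FPKM (6.52% of the gene) in the mutant library and 15.5 FPKM (14.1%) in the control library. These are the authors' estimates of how fragments divide among near-identical transcripts, and no test was made of the shares.

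**Figure D4:**
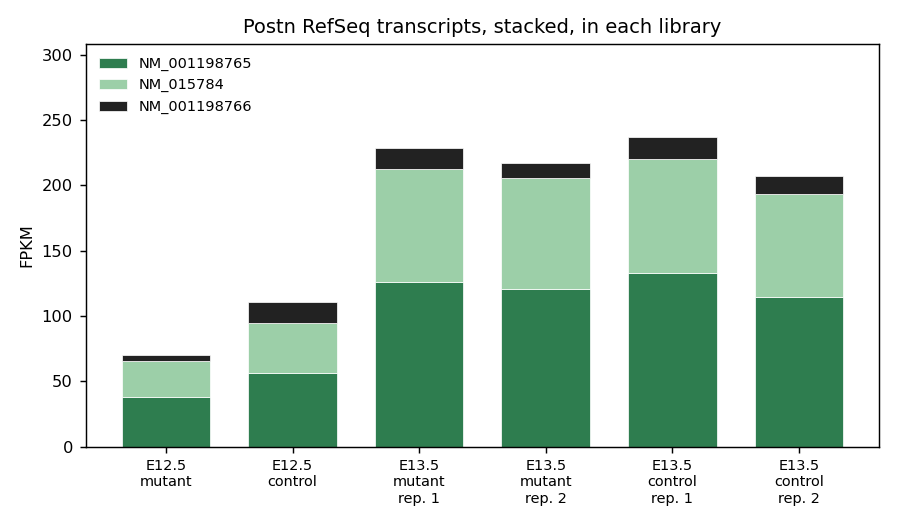
Stacked bars of the FPKM given to each of 3 RefSeq transcripts of Postn, 1 bar per library, mutant bars left of control bars within an age. The black segment, the transcript with neither cassette exon, is 4.59 FPKM in the E12.5 mutant library, 15.5 FPKM in the E12.5 control library and 11.6 to 16.8 FPKM at E13.5.

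At E12.5, with 1 library per genotype, a difference was noted at 1 or more on the log2 scale where the higher library had 5 FPKM or more, a size that 0.936% of 6092 genes passed. Only Tnc and Postn had the 5 FPKM it asks for, and neither passed it. In a test added after the data were seen, with each E12.5 library taken to have the spread of the E13.5 libraries, 25 of all genes tested (0.232%) passed and no member did (1170 genes at an unadjusted p under 0.05). Tnc had 22.0 FPKM in the mutant library and 14.2 FPKM in the control library (0.59 on the log2 scale, 95% interval 0.16 to 1.03, limma adjusted p = 0.369). Postn had 70.5 FPKM in the mutant library and 110.6 FPKM in the control library (-0.64, interval -1.12 to -0.16, limma adjusted p = 0.379). The median gene was itself 0.18 higher in the mutant library, and relative to it these differences were 0.41 for Tnc and -0.82 for Postn. The ratio of Postn to Tnc FPKM was 3.20 in the E12.5 mutant library and 7.77 in the E12.5 control library, and between 5.86 and 7.23 in the 4 E13.5 libraries. The E12.5 intervals of Thbs2 (-0.16 to 0.65) and Tnn (-0.18 to 0.73) included 0, with limma adjusted p of 0.555 for Thbs2 and 0.552 for Tnn. Thbs2 had 0.989 FPKM in the mutant library and 0.679 FPKM in the control library, and Tnn 0.223 FPKM in the mutant library and 0.0101 FPKM in the control library, an estimated 46.4 and 2.91 fragments. Thbs1 had 2.17 FPKM in the mutant library and 2.52 FPKM in the control library. Thbs3 had 4.24 FPKM in the mutant library and 3.79 FPKM in the control library, a difference of 0.13 that became -0.11 with equal FPKM sums and -0.04 under median ratio scaling.

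The genotype difference at E13.5 minus that at E12.5 was 1.39 for Thbs2 (SE 0.221, unadjusted p = 0.000143, limma adjusted p = 0.143) and 1.401 for Tnn (SE 0.245, unadjusted p = 0.000286, limma adjusted p = 0.186). Neither passed the adjustment, which 4 of all genes tested (0.037%) did, so a change of the genotype difference with age was not established for them. For Postn it was 0.65 (unadjusted p = 0.0347, adjusted p = 0.833 by limma), and for Thbs1, Thbs3 and Tnc the adjusted p was 0.839 or more. Here each E12.5 library was taken to have the spread seen at E13.5. Over both ages together, 1.44% of all genes tested passed, and Thbs2 (1.17, SE 0.233) and Tnn (1.21, SE 0.241) passed at a limma adjusted p of 0.0453 each. Both calls were lost without E13.5 mutant replicate 1 (adjusted p = 0.185 each) and without E13.5 control replicate 1 (0.164 each), and Tnn also without E13.5 mutant replicate 2 (0.0558). Neither gene passed with pseudocount 5, no filter or a filter on the mean, with equal FPKM sums or median ratio scaling, or with the highest transcript only. With the title number as a block neither passed (limma adjusted p = 0.184 each), but E13.5 mutant replicate 1 is alone in its number. The block gave the same differences as leaving that library out (0.99 for Thbs2 and 1.04 for Tnn), so it is no separate check.

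With age, Postn and Thbs1 rose in the cells of both genotypes, Thbs2 and Tnn passed the test in mutants and Tnc passed it in controls. The interaction, which tests the difference between genotypes, passed for none of them. The lone E12.5 library of each genotype was again taken to have the spread seen at E13.5. In mutants 4 of 6 tested members passed, all higher at E13.5, where 6.63% of all genes tested passed and 3.05% as higher. In controls 3 of 6 passed, all higher at E13.5, where 4.23% of all genes passed and 3.47% as higher. Thbs2 and Tnn passed the filter on low values only through E13.5 libraries. The counts with age are therefore descriptions and are not read against those shares.

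In mutant cells Thbs2 had 6.61 and 5.87 FPKM at E13.5, against 0.989 FPKM at E12.5 (3.64-fold, limma adjusted p = 0.000404). In control cells it had 1.35 and 1.32 FPKM at E13.5, against 0.679 FPKM at E12.5 (1.39-fold, limma adjusted p = 0.131). Tnn in mutant cells had 3.16 and 2.79 FPKM at E13.5, against 0.223 FPKM at E12.5 (3.25-fold, adjusted p = 0.00111 by limma). In control cells Tnn had 0.277 and 0.207 FPKM at E13.5, against 0.0101 FPKM at E12.5 (limma adjusted p = 0.382). The E13.5 control values of Tnn were thus close to the E12.5 mutant value. That the change with age differs between genotypes for these genes is the interaction given above, which did not pass.

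Postn rose with age to 228.5 and 217.1 FPKM in mutants, against 70.5 FPKM at E12.5 (3.13-fold, limma adjusted p = 0.00194). In controls it had 237.2 and 207.2 FPKM at E13.5, against 110.6 FPKM at E12.5 (2.00-fold, limma adjusted p = 0.0206). In controls it no longer passed without E13.5 control replicate 1 (adjusted p = 0.214) or 2 (0.102). Thbs1 rose by 0.96 on the log2 scale in each genotype (1.95-fold, limma adjusted p = 0.0174 in mutants and 0.0197 in controls). In controls Thbs1 no longer passed when E13.5 control replicate 2 was left out (adjusted p = 0.0634), and with the highest transcript only it passed in neither genotype (0.0760 in mutants and 0.0808 in controls). Tnc rose in controls, with 32.8 and 29.3 FPKM at E13.5 against 14.2 FPKM at E12.5 (2.10-fold, limma adjusted p = 0.0106), a call lost without E13.5 control replicate 1 (0.0613). In mutants Tnc had 32.8 and 37.0 FPKM at E13.5, against 22.0 FPKM at E12.5 (1.56-fold, limma adjusted p = 0.0540), and it passed with equal FPKM sums (0.0269), under median ratio scaling (0.0310) and without E13.5 mutant replicate 1 (0.0235). Thbs3 passed in neither genotype (0.49 in mutants, adjusted p = 0.113, and 0.25 in controls, adjusted p = 0.458, by limma). The median gene differed by -0.13 with age in mutants and by less than 0.01 in controls.

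The order of the members by FPKM was led by Postn and then Tnc in every library. At E13.5 in mutants Thbs2 (5.87 and 6.61 FPKM) and Thbs3 (6.21 and 6.49 FPKM) came next and overlapped, ahead of Thbs1, Tnn, Thbs4, Comp and Tnxb. At E13.5 in controls Thbs1 (5.08 and 6.77 FPKM) and Thbs3 (4.11 and 5.39 FPKM) came next and overlapped, ahead of Thbs2, Thbs4, Tnn, Comp and Tnxb. Mutant cells thus had Tnn above Thbs4 and control cells had Thbs4 above Tnn at E13.5. Tnxb was last in every library, level with Comp at 0 in the E12.5 control.

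Over the 6 libraries the profiles of Thbs2 and Tnn were each other's nearest among 9916 genes compared. Likeness was the Euclidean distance between log2(FPKM + 1) profiles, each centred on its own mean, and it was 0.208 for this pair. Adding 1 FPKM compresses differences among low values, and the ratio of Thbs2 to Tnn FPKM itself varied. It was 2.09 and 2.11 in E13.5 mutant libraries and 4.87 and 6.38 in E13.5 control libraries. At E12.5 it was 4.44 in the mutant library and 67.0 in the control library. The next nearest to both were Mylk (0.288 from Thbs2 and 0.355 from Tnn), the gene of myosin light chain kinase, and Sp7 (0.310 and 0.453), the osteoblast transcription factor osterix. Mylk had 11.3 and 9.75 FPKM in E13.5 mutant libraries, against 2.79 and 2.21 FPKM in E13.5 control libraries, and Sp7 had 7.02 and 5.03 FPKM in mutants, against 1.23 and 1.48 FPKM in controls. The other thrombospondins were far from Thbs2, with Thbs3 at 1.59 and Thbs1 at 1.85, as were Tnc at 1.55 and Postn at 1.76. Nearest to Thbs1 were Lrrc7 (0.239), Pcdh9 (0.257) and Ntrk2 (0.269), nearest to Tnc were Cgnl1 (0.197), Hs6st1 (0.222) and H19 (0.265), and nearest to Postn were Prr5 (0.243), Scand1 (0.276) and Nbl1 (0.307). With 6 libraries in 4 groups, these distances describe the libraries and no more.

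**Figure D5:**
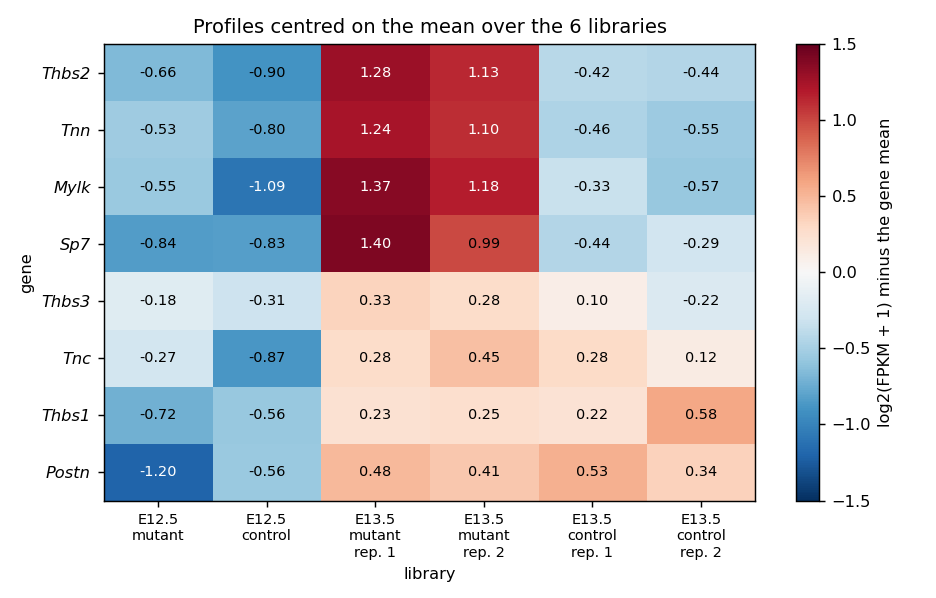
Heat map of log2(FPKM + 1) minus the gene's mean over the 6 libraries, 1 row per gene and 1 column per library, mutants left of controls within an age. Thbs2, Tnn, Mylk and Sp7 are highest in both E13.5 mutant libraries (0.99 or more above the mean), while Tnc, Thbs1 and Postn are above their mean in all 4 E13.5 libraries.

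Markers of other cell types were also compared, and at E13.5 only some of them differed between genotypes. Over all genes tested at E13.5, 1.29% passed in either direction and 0.852% passed as higher in mutants. The 8 osteoblast lineage markers summed to 52.4 FPKM in the E12.5 mutant library and 20.1 FPKM in the E12.5 control. Most of these E12.5 sums was Runx2, with 45.8 FPKM in the mutant and 16.3 FPKM in the control. Alpl had 5.78 FPKM in the E12.5 mutant and 2.40 FPKM in the control. Sp7 (0.693 and 0.704 FPKM) was nearly level, and Bglap (0.102 and 0.638 FPKM) lay in the opposite direction. At E13.5 they summed to 100.8 and 108.7 FPKM in mutant libraries, against 35.5 and 30.2 FPKM in control libraries. Alpl, Runx2 and Sp7 rose at E13.5 (3.45-, 2.92- and 2.96-fold, limma adjusted p at or under 0.00205), while the later bone markers Ibsp, Bglap, Spp1, Phex and Dmp1 were under 1 FPKM in every library. Of 5 tendon and ligament markers, 1 rose and 4 did not pass. The 1 was Tnmd, the gene of tenomodulin, with 4.04 and 2.92 FPKM in E13.5 mutant libraries, against 0.0652 and 0.226 FPKM in E13.5 control libraries (limma adjusted p = 0.000728). Kera lay in the opposite direction, with 0.373 and 0.284 FPKM in mutants, against 1.05 and 1.10 FPKM in controls (-0.65, limma adjusted p = 0.0887), and the log2 differences of Scx, Mkx and Fmod were 0.29, 0.39 and 0.12. Tnmd passed the filter on low values only through mutant libraries, and Kera only through the E13.5 control libraries. The count for this list is therefore a description. The list's sum was 23.5 and 22.8 FPKM in mutants, against 18.9 and 13.7 FPKM in controls, at E13.5, and 25.8 FPKM in the mutant and 16.4 FPKM in the control at E12.5. The 6 cartilage markers summed to 155.4 FPKM in the mutant and 92.1 FPKM in the control at E12.5, and to 87.4 and 109.8 FPKM in mutants against 74.5 and 57.0 FPKM in controls at E13.5, with no marker past the test. The 7 neuron markers summed to 78.7 and 90.3 FPKM in mutants, against 54.3 and 50.0 FPKM in controls, at E13.5. Of these only Nefm passed, as higher (limma adjusted p = 0.0256). Nefl (1.71-fold) and Gap43 (1.28-fold) did not pass, and Tubb3 lay in the opposite direction without passing (0.811-fold). Elavl3, Elavl4 and Snap25 stayed at or under 0.203 FPKM in every library. Of the 7 palatal mesenchyme markers, 3 fell at E13.5 and none passed as higher. The 3 were Osr2, which is the mutated gene itself, Osr1 (0.489-fold, limma adjusted p = 0.0370) and Shox2 (0.617-fold, limma adjusted p = 0.0462). Twist1 lay in the opposite direction, with 92.7 and 98.5 FPKM in mutants, against 73.9 and 68.7 FPKM in controls (1.34-fold, limma adjusted p = 0.315). Osr1 had 13.0 and 11.7 FPKM in mutants, against 21.2 and 32.8 FPKM in controls, while Prrx1 had 66.5 and 83.8 FPKM in mutants, against 78.2 and 74.3 FPKM in controls. The part of these cells in the Thbs2 and Tnn differences was not tested.

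Over all genes tested, 0.852% passed as higher in mutants at E13.5. Among 25 genes of receptors for these proteins, 20 were tested at E13.5, and 1 was higher and none lower in mutants. It was Itga6, an integrin alpha chain of the laminin receptors that also binds thrombospondins, with 3.56 and 3.12 FPKM in mutant libraries against 1.49 and 1.34 FPKM in control libraries (1.80-fold, limma adjusted p = 0.0192). Its call was lost without E13.5 mutant replicate 1 (adjusted p = 0.0583) or E13.5 control replicate 2 (0.0678), under median ratio scaling (0.0549), with the highest transcript only (0.0754) and with no filter on low values (0.355). The list's median difference was 0.12, against 0.04 over all genes tested. Cd47, Lrp1 and Itgb1 were well expressed, at 12.5 to 16.0, 15.5 to 16.3 and 17.2 to 27.9 FPKM over the 6 libraries, while Cd36 stayed at or under 0.0248 FPKM. With age, Anxa2, a tenascin C receptor, had 43.4 and 37.3 FPKM at E13.5 against 6.79 FPKM at E12.5 in mutants, and 30.5 and 29.5 FPKM against 3.43 FPKM in controls (5.29- and 6.998-fold, limma adjusted p at or under 0.000151).

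Against the same share of 0.852% of all genes tested, 17 of 21 matrix partners were tested at E13.5, and 1 was higher and none lower in mutants. It was Col12a1, the chain of a collagen that lies on collagen fibrils and binds tenascins, with 18.4 and 15.1 FPKM in mutant libraries, against 5.11 and 4.95 FPKM in control libraries (2.93-fold, limma adjusted p = 0.000728). The list's median difference was -0.03, against 0.04 over all genes tested. With age, in mutants 7 of 17 rose, none fell and 10 did not pass, where 3.05% of all genes rose, with a median difference of 0.48 against -0.13 over all genes. In controls 8 of 17 rose, none fell and 9 did not pass, where 3.47% of all genes rose, with a median of 0.56 against -0.00 over all genes. Eln (elastin, 3.27-fold in mutants and 3.91-fold in controls), Lox (lysyl oxidase, 2.74- and 3.31-fold) and Col12a1 (7.06- and 3.46-fold) were among them in each genotype, each with a limma adjusted p at or under 0.00135. Dcn and Col14a1, which also rose in each genotype, passed the filter on low values only through E13.5 libraries. The counts with age in this list are therefore descriptions and are not read against the shares of all genes.

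No gene of the other 3 lists passed at E13.5 by limma. None of 8 tested proteases did (3 at an unadjusted p under 0.05, median difference 0.14). Mmp9, the gelatinase B, was the nearest with 3.22 and 2.05 FPKM in mutants, against 1.09 and 0.881 FPKM in controls (0.86, limma adjusted p = 0.0631). None of 6 tested genes of the TGF-beta list passed (2 at an unadjusted p under 0.05, median 0.16), with Ltbp1 (adjusted p = 0.371) and Tgfb2 (0.396) the nearest by limma. None of 8 tested other matricellular genes passed (1 at an unadjusted p under 0.05, median 0.14), with Cyr61 the nearest (limma adjusted p = 0.466). With age, Sparc rose and Smoc1 fell in both genotypes, Smoc1 having 2.51 and 2.68 FPKM at E13.5 against 15.8 FPKM at E12.5 in mutants and 2.90 and 2.63 FPKM against 12.8 FPKM in controls (limma adjusted p at or under 0.000408). Smoc2 also passed as higher at E13.5 in both genotypes. It had 4.24 and 2.05 FPKM at E13.5 against 0.255 FPKM at E12.5 in mutants, and 2.10 and 3.54 FPKM against 0.267 FPKM in controls. Smoc2 passed the filter on low values only through E13.5 libraries, so its call is a description.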

How the data were processed

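The authors' deposited tables give FPKM for each RefSeq transcript in each library, computed with Cufflinks per the file names. The submitters' processing notes name TopHat 1.4.1 and Bowtie 0.12.7, with mm10 and mm9 as builds, and give no Cufflinks version. Positions match GRCm38 (mm10). The deposited coverage signal was used only to estimate fragments at 150 read bases each, so there are no counts and no counting intervals.

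FPKM were summed per symbol, and 25 symbols with a failed transcript estimate were left out. limma 3.58.1 (R 4.3.3) was fitted to log2(FPKM + 1) of 10799 genes with an intensity trend and 1 mean per group, or age plus genotype for both ages together. All tests were two-sided, and the procedure was tested on simulated data. The members and lists were chosen with earlier results of these data known. Named are all members, Osr2, the 3 genes of nearest profile to each called member, and list genes that passed, else up to 2 with the smallest p. Some called list genes are given by count only, and marker genes and other receptors were named after their values were seen. Left out of the profile search were uncharacterised and short RNA symbols and genes of uncertain assignment. Alternatives changed the pseudocount (0.1 or 5), filter, scaling, trend, transcript summing and libraries used. A title number block and a test of the E12.5 pair were added after the data were seen.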

Additional observations from a re-analysis of the deposited data

Results flagged for a closer look

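The Thbs4 values of the genotypes were ordered in opposite ways at the 2 ages, at levels under 1 FPKM in every library. At E13.5 it had 0.347 and 0.525 FPKM in mutants, against 0.329 and 0.333 FPKM in controls, a difference of means of 0.105 FPKM. The E12.5 values were 0.158 FPKM in the mutant library and 0.170 FPKM in the control library. The estimated fragments were 42.1 and 68.3 in E13.5 mutants, against 36.6 and 50.2 in E13.5 controls. At E12.5 they were 19.2 in the mutant library and 23.3 in the control library. With so few fragments, a reversal with age was not established. The genotype difference was not tested, since Thbs4 was under the filter on low values in all libraries.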

How the results depend on the processing

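The labels give no replicate numbers to pair libraries by, but title numbers cross genotypes. With title number as a block, a fit added after the data were seen, 61 genes and 0 members passed over both ages (Thbs2 0.99 and Tnn 1.04, adjusted p = 0.184 each). The labels do not say what that number marks. E13.5 mutant replicate 1 is alone in its number, so for Thbs2 and Tnn the block gave the same differences as leaving that library out. Thbs2 and Tnn kept their E13.5 calls in all alternatives but the one with no filter on low values, where neither passed (adjusted p = 0.321 each by limma). With no filter, 0 of 17711 genes passed for genotype at E13.5 (1528 at an unadjusted p under 0.05) and 0 over both ages (1956), 13 for the interaction, 14 for age in controls and 10 for age in mutants, and 0 members in every contrast. The 139 genes at E13.5 became 81 with a mean of at least 1 FPKM, 77 under median ratio scaling, 37 with only the highest transcript and 75 to 192 with a library left out (75 without control replicate 2). Over both ages the 156 became 69 with the highest transcript and 65 to 159 with a library left out (65 without E13.5 mutant replicate 1, 79 without E13.5 control replicate 1), and members called became 0 with pseudocount 5, a mean of at least 1 FPKM, equal sums, median ratio scaling or the highest transcript, and 0 to 2 with a library left out. The interaction's 4 became 11 with a mean of at least 1 FPKM, 2 under median ratio scaling and 13 to 37 with a library left out. Age in controls (457) became 143 with the highest transcript and 257 to 945 with a library left out, with 1 to 3 members called (2 with the highest transcript, without Thbs1). Age in mutants (716) became 418 with a mean of at least 1 FPKM, 428 under median ratio scaling, 150 with the highest transcript and 603 to 1130 with a library left out, with 4 to 5 members called. The E12.5 count of 57 became 34 with pseudocount 5, and 25 passed in the limma test added for that pair. Signs turned for Postn at E13.5 (-0.0064 with equal sums, -0.048 under median ratio scaling, -0.0054 with the highest transcript, -0.090 to 0.10 with a library left out), Postn over both ages (-0.33 to 0.0067 with a library left out), Thbs1 at E13.5 (-0.33 to 0.020) and the Thbs1 interaction (0.031 with pseudocount 0.1, 0.19 with equal sums, 0.10 under median ratio scaling, -0.18 to 0.17 with a library left out). Without a library fewer samples entered each fit, and for the other changes the cause was not tested. With 2 libraries per genotype at E13.5 and 1 at E12.5, the number of libraries limits precision.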
